A study of Homo sapiens with 28 samples.

Results

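The genes of the m6A methyltransferase complex (MTC) were examined as targets of the mark that their own products install. The 8 genes METTL3, METTL14, WTAP, VIRMA, ZC3H13, CBLL1, RBM15 and RBM15B were taken by name, and their bounds came from GENCODE on hg38. They are 8 of 12608 protein-coding genes with at least 1 sense peak. A peak counted for a gene when its summit lay between 1000 bases upstream of the gene start and the gene end, and the 2 strands were kept apart. Overlapping peaks of the 14 libraries were merged by strand into regions, and the 8 genes held 405 sense peaks in 40 sense regions, of 56756 sense regions of protein-coding genes.

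The series mapped N6-methyladenosine (m6A) on chromatin-associated RNA (caRNA) with MeRIP-seq, an assay that enriches RNA fragments on an m6A antibody, sequences them and calls peaks where they pile up. Of its 28 samples, 14 are immunoprecipitated (IP) libraries with 1 peak list each, and the inputs are not analysed here. The groups were unmodified HepG2 (HepG2 WT, n = 2, a hepatoma line), unmodified K562 (K562 WT, n = 2, a chronic myelogenous leukaemia line), K562 Control and K562 RBFOX2 KD (n = 2 each), and NB4 Control and NB4 RBFOX2 KD (n = 3 each, an acute promyelocytic leukaemia line). Control and KD cells were puromycin-selected lines transduced with lentiviral short hairpin RNA, non-targeting in Control and against the RNA-binding protein RBFOX2 in KD.

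The MTC places m6A on RNA as it is made. METTL3 is its catalytic subunit and METTL14 the partner that holds the RNA, while WTAP keeps the pair in nuclear speckles. VIRMA, ZC3H13 and the ubiquitin ligase CBLL1 (HAKAI) belong to the larger regulatory part of the complex, and RBM15 and RBM15B bind RNA and bring the complex to it. In mRNA, m6A is known to collect around stop codons and in long exons, in the sequence context named DRACH.

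The lists held between 22700 and 44088 peaks, with a median summit fold between 3.84 in HepG2 WT 1 and 8.01 in K562 RBFOX2 KD 2. The summit fold is the enrichment of reads at the summit of a peak over the local background, and a region takes the highest one in each library. Effective reads, a depth recovered from the lists, lay between 10.8 and 25.6 M in the 11 libraries where they could be recovered. Peaks marked the lines as labelled. Of 8 hepatocyte genes, 3 to 6 had a sense peak in the HepG2 lists and 0 in the others. Of 8 erythroid genes, 7 to 8 had one in the K562 lists, against 1 to 3 in HepG2 and 3 to 4 in NB4. Of 8 myeloid genes, 6 to 7 had one in the NB4 lists and 1 to 2 elsewhere. RBFOX2 carried 2 to 3 sense peaks in the K562 Control lists, 3 in both K562 RBFOX2 KD lists, and 1 to 2 in every NB4 list. A peak count does not measure RNA, so the depth of the knockdown cannot be read from these lists. In peak lists, a change in methylation and a change in how much RNA was there to pull down cannot be told apart.

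The sequences below surround the median summit of the coding region with the highest mean rank in each of 6 genes, to show the letters under the summits that the values describe. A summit lay within 150 bases of this position in all 14 libraries for METTL3, METTL14, WTAP, ZC3H13 and CBLL1, and in 10 of 14 for RBM15B. RBM15 is not shown, since its summits fell in separate places along exon 1. Each runs 5′ to 3′ on the strand of the gene in hg38, over 61 bases, with the median summit of the 14 libraries in the middle. Capitals mark DRACH, that is A, G or T, then A or G, then AC, then A, C or T. METTL3 lies at chr14:21503280-21503340 (minus), METTL14 at chr4:118710136-118710196 (plus), WTAP at chr6:159755345-159755405 (plus), ZC3H13 at chr13:45985649-45985709 (minus), CBLL1 at chr7:107759084-107759144 (plus) and RBM15B at chr3:51393346-51393406 (plus).
METTL3 exon 3: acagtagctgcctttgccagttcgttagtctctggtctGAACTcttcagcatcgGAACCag
METTL14 exon 11: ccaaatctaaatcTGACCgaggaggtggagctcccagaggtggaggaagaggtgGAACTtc
WTAP exon 8: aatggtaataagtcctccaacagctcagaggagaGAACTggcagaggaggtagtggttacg
ZC3H13 exon 10: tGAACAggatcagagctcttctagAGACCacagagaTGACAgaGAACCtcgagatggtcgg
CBLL1 exon 6: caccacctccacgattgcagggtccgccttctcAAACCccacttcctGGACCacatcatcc
RBM15B exon 1: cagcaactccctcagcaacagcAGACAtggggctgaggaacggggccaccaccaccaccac

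Between 1 and 4 DRACH copies lay in each of these windows, with the most in ZC3H13 exon 10. Within 75 bases of the median summit, DRACH occurred at 11 of the 11 regions of these 6 genes and RBM15 that were listed in all libraries, and in 98.3% of all 6725 windows around sense regions of this kind. The letters GGAC occurred at 7 of 11, against 67.7% of all windows, and GGACT at 2 of 11, against 29.9%. AGATG, a further motif searched, occurred at 4 of 11, against 22.8%, and TGCATG, the canonical RBFOX2 motif, at 0 of 11, against 3.38%. ZC3H13 exon 10 had 3 copies of AGATG within this distance, the nearest 5 bases from the summit. All motifs were read on the strand of the gene, and GGACT overlaps both GGAC and DRACH. A match is a description of the letters and not a site.

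All 8 genes had a sense peak in all 14 libraries. Each also had at least 1 region listed in all 14, whereas 34.9% of genes with a sense peak had such a region. Of the 40 member regions, 13 (32.5%) were listed in all 14 libraries, against 11.8% of sense regions of protein-coding genes. ZC3H13 held 4 of the 13, WTAP and VIRMA 2 each, and the other genes 1 each. ZC3H13 also had the most peaks, 140 of the 405, spread over 16 regions, while METTL14 had 19. Summed over the 8 genes, the lists held 21 and 26 peaks in HepG2 WT, 31 and 27 in K562 WT, 24 and 29 in K562 Control, 26 and 24 in K562 RBFOX2 KD, 27, 30 and 33 in NB4 Control and 38, 35 and 34 in NB4 RBFOX2 KD. The NB4 groups did not overlap in this sum, and neither did the lengths of their whole lists (29609 to 33497 peaks in Control, 36777 to 39803 in KD).

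**Figure D1:**
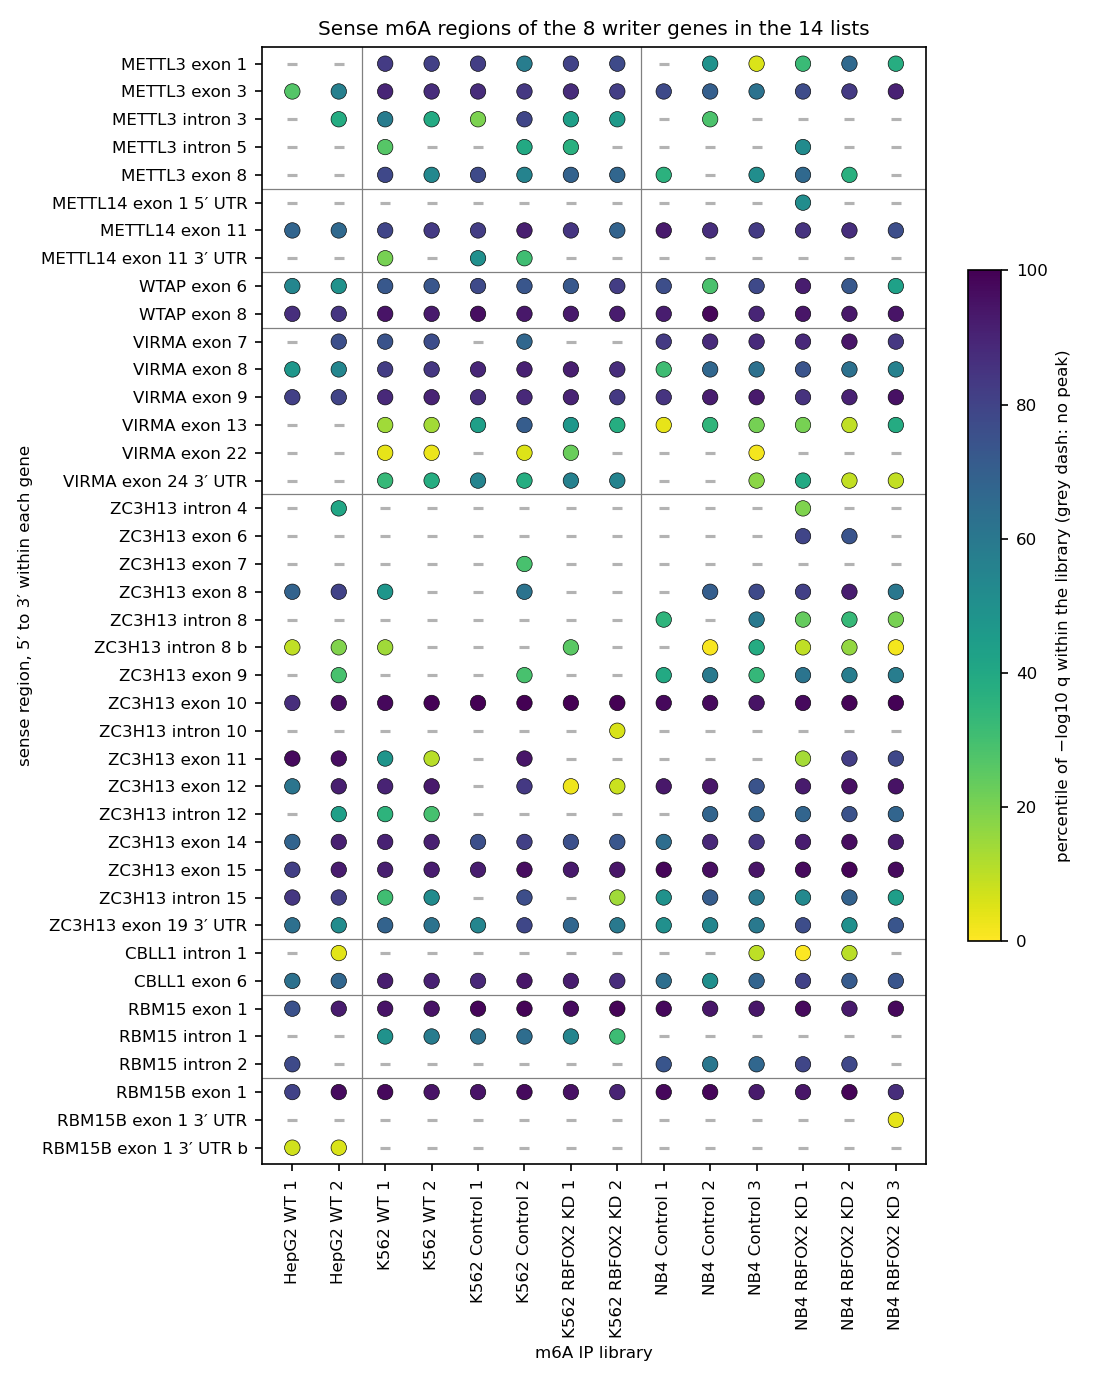
Each row is 1 of the 40 sense regions of the 8 genes, ordered 5′ to 3′ within a gene, and each column 1 of the 14 IP libraries. Filled points are listed peaks coloured by the percentile of their −log10 q within the library and grey dashes are regions with no peak; 13 rows are filled throughout, and ZC3H13 holds 16 of the 40 rows.

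By its median summit and the canonical transcript, each of the 13 regions was placed in an exon. Of these, 12 fell in the coding sequence and 1 in a 3′ UTR, with none in an intron. The highest summit of single libraries lay outside the exons for WTAP exon 6 in NB4 Control 2 and NB4 RBFOX2 KD 3 and for VIRMA exon 8 in NB4 Control 1. Of all 6725 sense regions listed in 14 libraries, 48.0% fell in the coding sequence, 21.7% in a 3′ UTR and 20.7% in an intron. Among the 13, 5 were in the last exon (41.0% of all), and 4 lay within 400 bases of the stop codon (28.8% of all). The exons that held them ranged from 179 to 6624 bases with a median of 1224, against a median of 158 over all 83 canonical exons of the 8 genes. Over all genes the exons that held a region of this kind had a median of 1412 bases. The other 27 member regions comprised 11 intronic ones by median summit. None of these had a summit inside the gene bounds in more than 12 libraries. The one listed in 12, ZC3H13 intron 15, lay at an exon border. Its summits in HepG2 WT 2, NB4 Control 3 and NB4 RBFOX2 KD 3 fell in an exon, at spliced bases 4674 and 4675.

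**Figure D2:**
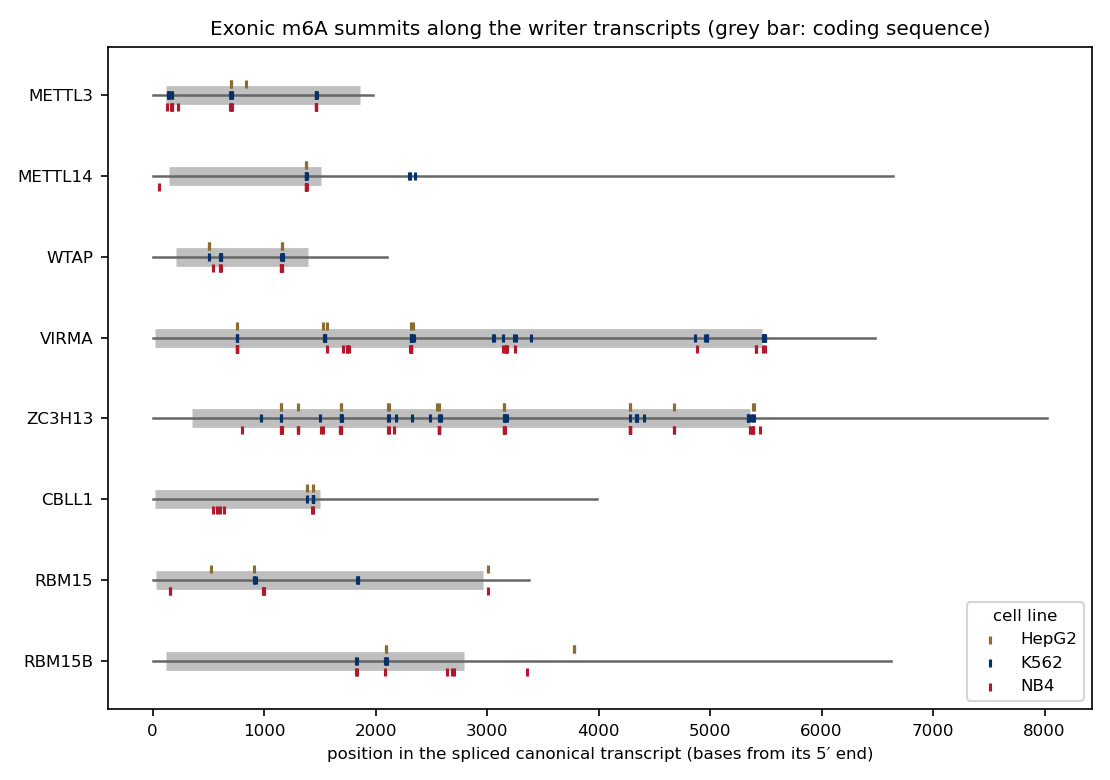
Ticks mark exonic summits of each library along the spliced canonical transcripts of the 8 genes, in bases from the 5′ end, for HepG2, K562 and NB4 from top to bottom; thin lines are untranslated parts and grey bars coding sequence. METTL14, WTAP, ZC3H13 and CBLL1 have summits next to the end of the coding sequence in all lines, and in ZC3H13 summits lie along the whole of it.

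METTL3, the methyltransferase itself, had 1 region in all libraries, in exon 3 (chr14, 21503113 to 21504012), with its median summit at codon 196. The summit fold there was 1.96 and 2.52 in HepG2 WT, 9.16 and 8.48 in K562 WT, 17.8 and 8.95 in K562 Control and 13.5 and 11.7 in K562 RBFOX2 KD. In NB4 it was 4.17, 6.23 and 2.82 in Control and 4.2, 4.82 and 7.62 in KD. Before centring, every K562 library stood above every HepG2 and NB4 library on this scale. Once each library was centred on its median, K562 WT minus HepG2 WT was 0.79 on the log2 scale (SE 0.352, limma adjusted p = 0.182). NB4 Control minus K562 Control was -0.68 (SE 0.321, adjusted p = 0.129), and the Control groups overlapped. Within lists, the region ranked at the 26.8th and 56.7th percentile in HepG2 WT and from the 62.3rd to the 90.9th in the other 12 libraries. The percentile is the share of a library's peaks with a lower −log10 q. NB4 Control 2 had its highest summit at spliced base 227, away from the 689 to 714 of the other libraries, and its fold within 150 bases of the median summit was 4.57.

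METTL3 had more listed peaks in K562 than in HepG2, whose whole lists were also shorter (22700 and 27438 peaks, against 44088 and 43403 in K562 WT). Of all sense regions listed in either WT group, 31.4% were in both K562 WT libraries and in neither HepG2 WT library. The part of list length was not tested. The gene held 5 to 6 sense peaks in every K562 library, 1 and 2 in HepG2 WT and 2 to 4 in NB4. A region over exon 1, with its median summit at codon 17, was listed in all 6 K562 libraries at folds from 8.47 to 17.7, in neither HepG2 library and in 5 of 6 NB4 libraries at 2.23 to 6.09. A region over exon 8, at codon 450, was listed in all 6 K562 libraries at 4.06 to 14.3, in neither HepG2 library and in 4 of 6 NB4 libraries at 2.69 to 4.54. A region at the border of intron 3, intronic by its median summit, was listed in all 6 K562 libraries, in HepG2 WT 2 and NB4 Control 2. None of the 3 NB4 RBFOX2 KD libraries listed it. In HepG2 WT 2 its summit lay in an exon, at spliced base 841.

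METTL14, the partner of METTL3, had its single common region at the end of its coding sequence, in exon 11 (chr4, 118709961 to 118710884). The summits of the 14 libraries fell within 11 bases of each other, at codon 412 and 136 bases before the stop codon. The fold was 5.21 and 5.68 in HepG2 WT, 11.7 and 12.9 in K562 WT, 18.8 and 22.3 in K562 Control and 19.9 and 12.9 in K562 RBFOX2 KD. NB4 libraries gave 19.9, 12.3 and 11.1 in Control and 11.4, 12.7 and 10.01 in KD. HepG2 had the lowest folds before centring, and the K562 and NB4 groups overlapped. Once each library was centred on its median, K562 WT minus HepG2 WT was -0.03 on the log2 scale (SE 0.275, limma adjusted p = 0.968), and these groups overlapped. A second region, 792 bases past the stop codon in the 3′ UTR, was listed in K562 WT 1 (4.12) and both K562 Control libraries (8.19 and 5.21) and in no other.

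WTAP, which anchors the catalytic pair in the nucleus, had only 2 sense regions, and both were listed in all libraries. The stronger one was in exon 8, the last (chr6, 159755017 to 159755642), at codon 319, with summits within 21 bases of each other. Its fold was 4.02 and 3.88 in HepG2 WT, 11 and 9.79 in K562 WT, 34.0 and 14.7 in K562 Control and 20.01 and 21.5 in K562 RBFOX2 KD. In NB4 it was 8.36, 12.5 and 5.45 in Control and 7.24, 7.25 and 7.53 in KD. It ranked high in every list, from the 84.7th to the 98.2nd percentile. Both K562 RBFOX2 KD libraries lay between K562 Control 1 and 2. The other region was in exon 6 at codon 134, with folds from 2.52 in HepG2 WT 2 to 14.8 in K562 RBFOX2 KD 2. Both regions lie within the bounds of SOD2 on the opposite strand.

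VIRMA, the large scaffold subunit, had 6 regions, of which those in exons 8 and 9 were listed in all libraries. In exon 9 (codon 765) the fold was 6.34 and 7.32 in HepG2 WT, 15.6 and 17.0 in K562 WT, 23.4 and 19.9 in K562 Control and 26.0 and 21.0 in K562 RBFOX2 KD. The NB4 values were 10.1, 16.7 and 15.3 in Control and 9.94, 14.5 and 19.3 in KD. In exon 8 the fold ranged from 3.69 and 4.91 in HepG2 WT to 24.6 and 18.3 in K562 Control and 27.2 and 23.2 in K562 RBFOX2 KD, and the highest folds of the merged region in the 6 NB4 libraries were 6.10 to 8.92. The K562 and HepG2 libraries placed the exon 8 summit between spliced bases 1531 and 1566, and 4 of the NB4 libraries between 1709 and 1759. NB4 Control 1 had its summit outside the exons, and NB4 RBFOX2 KD 1 was the one NB4 library with a summit within 150 bases of the median summit (8.92). A region in exon 7, lower in fold but higher in mean percentile than exon 8 (82.0 against 70.1), was listed in all 6 NB4 libraries (3.35 to 5.13), in HepG2 WT 2, both K562 WT libraries and K562 Control 2, and in neither K562 RBFOX2 KD library. The regions in exons 13 and 22 and the 3′ UTR region of exon 24 had no peak in HepG2.

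ZC3H13, a zinc-finger protein that links the parts of the complex, had regions in exons 10, 14, 15 and 19 in all libraries. The exon 10 region (chr13, 45985319 to 45985893; codon 446) had the highest mean percentile of the 13, at 97.5, and lay at the 95.1st percentile or above in every library except HepG2 WT 1 (86.7). Its fold was 3.43 and 5.31 in HepG2 WT, 10.5 and 15.0 in K562 WT, 64.4 and 28.2 in K562 Control and 30.01 and 28.5 in K562 RBFOX2 KD. In NB4 it was 5.54, 4.93 and 4.15 in Control and 5.41, 6.23 and 7.98 in KD. The K562 libraries that carried a hairpin stood above all others before centring. Exon 15 (codon 1311) ranked from the 81.4th to the 98.9th percentile with folds from 3.08 to 15.8. Exon 14 (codon 934) had folds from 3.07 to 15.7. The median summit of the exon 19 region lay 22 bases past the stop codon, with folds from 4.62 to 14.1. Summits of single libraries ran from spliced base 5341 to 5445, on both sides of the end of the coding sequence at 5362.

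The remaining 12 ZC3H13 regions differed between libraries of 1 group as well as between groups. ZC3H13 had 4 peaks in K562 Control 1 and 10 in K562 Control 2, against 7 in both K562 RBFOX2 KD libraries. An exon 11 region was listed in K562 Control 2 at a fold of 26.0, in both HepG2 WT libraries at 9.38 and 11.1 and in both K562 WT libraries at 6.20 and 2.59, but not in K562 Control 1 or in either K562 RBFOX2 KD library. An exon 12 region was listed in every library but K562 Control 1. Its fold was 11.2, with a pileup of 246, in K562 Control 2. In K562 RBFOX2 KD the folds were 2.36 and 2.63, with pileups of 68 and 78. The highest summits lay at spliced base 2322 in K562 Control 2 and at 2483 and 2585 in KD. These values therefore do not describe 1 site. In NB4 the same exon had pileups from 598 to 704. A region at the border of intron 15 was listed in 12 libraries and missed in K562 Control 1 and K562 RBFOX2 KD 1.

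CBLL1 had 1 common region, in exon 6, the last (chr7, 107758185 to 107759302), with its median summit at codon 471, 64 bases before the stop codon. The fold was 4.93 and 5.79 in HepG2 WT, 17.5 and 16.8 in K562 WT, 24.1 and 21.1 in K562 Control and 27.1 and 23.9 in K562 RBFOX2 KD. NB4 libraries gave 9.50, 6.95 and 6.86 in Control and 9.65, 8.86 and 9.46 in KD. All K562 libraries stood above all others before centring. In 4 of the NB4 libraries (Control 1 and 2, KD 2 and 3) the highest summit lay between spliced bases 537 and 644, and in the other 10 libraries between 1385 and 1440. Within 150 bases of the median summit the NB4 folds were 8.11, 4.57 and 6.86 in Control and 9.65, 6.90 and 9.17 in KD.

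RBM15, a subunit that binds RNA through its recognition motifs, had its common region over most of its long first exon (chr1, 110339097 to 110342502). The fold of the highest summit was 2.61 and 3.73 in HepG2 WT, 5.97 and 5.89 in K562 WT, 15.4 and 15.0 in K562 Control and 11.9 and 18.3 in K562 RBFOX2 KD. The NB4 values were 12.4, 4.69 and 4.75 in Control and 9.52, 4.75 and 8.04 in KD. Highest summits were up to 1685 bases apart, so these folds do not all describe 1 site. The highest summit lay at spliced bases 1833 to 1843 in K562 Control 1 and 2 and K562 RBFOX2 KD 2, at 993 to 996 in 4 NB4 libraries and at 158 and 159 in the other two.

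An intron 1 region of RBM15 was listed in all 6 K562 libraries, at folds from 3.69 to 6.73, and in none of the other 8. Of all sense regions of protein-coding genes, 3.88% had this pattern. It is named here because of its values, as are the other regions set out for a pattern over the lines. A region at the border of exon 2 and intron 2 was listed in HepG2 WT 1 and in 5 of 6 NB4 libraries, at 4.40 to 10.3. It runs past the annotated end of RBM15 towards LAMTOR5-AS1 on the same strand, and in the other 8 libraries its summit fell outside the bounds used here, so it was left out of the tests.

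RBM15B, the paralogue of RBM15, is a single-exon gene with its common region over the coding sequence (chr3, 51391749 to 51394380; codon 659). It had the highest mean fold of the 13, at 19.0. The fold was 3.03 and 5.33 in HepG2 WT, 23.5 and 16.8 in K562 WT, 32.1 and 30.99 in K562 Control and 32.3 and 27.2 in K562 RBFOX2 KD. In NB4 it was 18.5, 18.03 and 10.8 in Control and 15.6, 18.8 and 12.7 in KD. On these highest summits, before centring, HepG2 was lowest and the hairpin-carrying K562 libraries highest, with no overlap with the other groups. The summits were up to 873 bases apart, so they do not all describe 1 site. Within 150 bases of the median summit, NB4 Control 3 had a fold of 7.23, NB4 RBFOX2 KD 1 of 7.56 and KD 3 of 8.11. No summit lay that near in K562 Control 1, K562 RBFOX2 KD 1 or NB4 Control 1 and 2. A 3′ UTR region 990 bases past the stop codon was listed only in the 2 HepG2 libraries, at 2.68 and 2.65.

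**Figure D3:**
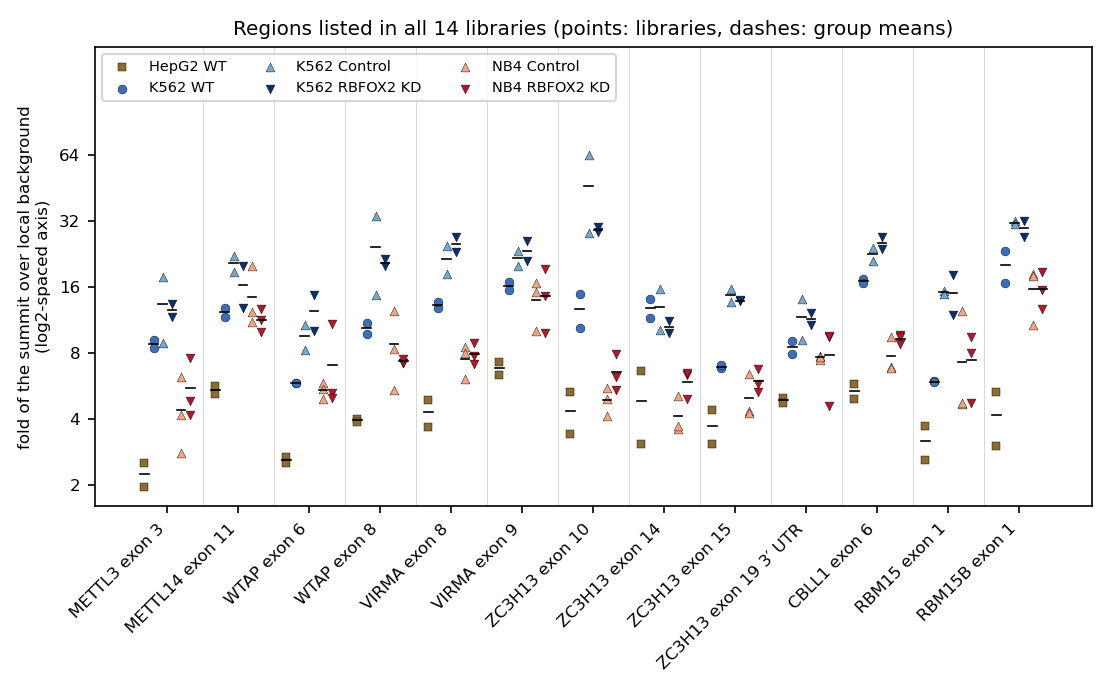
Fold of the highest summit over the local background, on a log2-spaced axis, for the 13 sense regions listed in all libraries, with 1 point per library and a dash at the mean of each group (n = 2 or 3). HepG2 WT points, before centring, lie lowest at every region outside ZC3H13, and K562 Control 1 reaches 64.4 at ZC3H13 exon 10.

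The HepG2 and K562 WT libraries ask how the mark on the writer genes differs between unmodified lines. The log2 fold was centred on the median of each library and fitted with limma, and a region was called at an adjusted p (Benjamini-Hochberg) under 0.05. Before centring, the median of all 8037 regions fitted stood 1.19 higher in K562 WT than in HepG2 WT, so the differences below are relative to that shift. Of 13 member regions fitted, 1 was called higher in K562 WT and 0 lower, against 3.61% and 5.82% of all regions. RBM15B exon 1 was 1.10 higher on the log2 scale (SE 0.302, adjusted p = 0.0426), and both K562 libraries exceeded both HepG2 libraries. The call was lost when any 1 of the 4 WT libraries was left out, with adjusted p-values from 0.0752 to 0.286, and without either K562 Control library, which shares the fit (0.0553). METTL3 exon 3 (0.79, SE 0.352, adjusted p = 0.182) and CBLL1 exon 6 (0.48, SE 0.218, adjusted p = 0.187) did not pass.

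By presence, 6 of the 34 member regions listed in either WT group were in both K562 WT libraries and in neither HepG2 WT library, and 31.4% of all sense regions were. These 6 were METTL3 exons 1 and 8, VIRMA exons 13, 22 and 24 and RBM15 intron 1. The reverse held for 1 of 34, the 3′ UTR region of RBM15B, against 9.76%. The HepG2 lists were also the shortest, with 22700 and 27438 peaks, against 44088 and 43403 in K562 WT, and the part of list length in these counts was not tested.

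NB4 Control and K562 Control, which both carried the non-targeting hairpin, ask the same of the 2 leukaemia lines. The median of all regions was 0.90 lower in NB4 before centring. Of 13 member regions, 3 were called lower in NB4 and 0 higher, against 13.8% and 16.8% of all 8037 regions. The largest difference was at ZC3H13 exon 10, which fell by 2.23 on the log2 scale (SE 0.298, adjusted p = 4.28e-04). Without K562 Control 1 the difference was -1.73 (adjusted p = 0.00563), and it passed in every fit with 1 library left out. CBLL1 exon 6 fell by 0.64 (SE 0.199, adjusted p = 0.0304) and ZC3H13 exon 15 by 0.67 (SE 0.228, adjusted p = 0.0455), and the Control groups did not overlap at any of the 3. Both smaller calls were lost without either K562 Control library, at adjusted p-values from 0.0563 to 0.247, and also without NB4 Control 2 or 3 or either K562 WT library, while ZC3H13 exon 15 was lost without either HepG2 library too (0.0602). VIRMA exon 8 (-0.59, SE 0.233, adjusted p = 0.0749) and ZC3H13 exon 14 (-0.72, SE 0.291, adjusted p = 0.0833) did not pass.

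ZC3H13 exon 10 was split into its parts. The pileup, the height of extended reads at the summit, was 601 and 622 in K562 Control and 539, 593 and 576 in NB4 Control. The local mean, the background the peak caller expected there, was 8.3 and 21.1 in K562 Control and 96.5, 119.6 and 137.9 in NB4 Control. K562 Control 1 had the same 8.3 at VIRMA exons 9 and 13 and ZC3H13 exons 14 and 19, so that value was not particular to exon 10. The pileups of the hairpin lines were therefore close to one another, and the local means were not. With up to 5 duplicates kept per position and reads of 150 bases, a pileup cannot pass 750, and the highest at a member region was 704. Pileups of HepG2 WT 1 and 2 and NB4 Control 3 were not whole, so these are not counts of reads. The highest in their whole lists were 309.5, 552.1 and 661.8, so their ceilings were lower. K562 WT had pileups of 589 and 572 over local means of 55.3 and 37.2. By percentile instead of fold, the region differed between the Control groups by -3.14 points (adjusted p = 0.559). It ranked at 99.99 and 99.86 in K562 Control and from 95.1 to 97.9 in NB4 Control. So near the top of the scale, the percentile could not show a large difference.

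**Figure D4:**
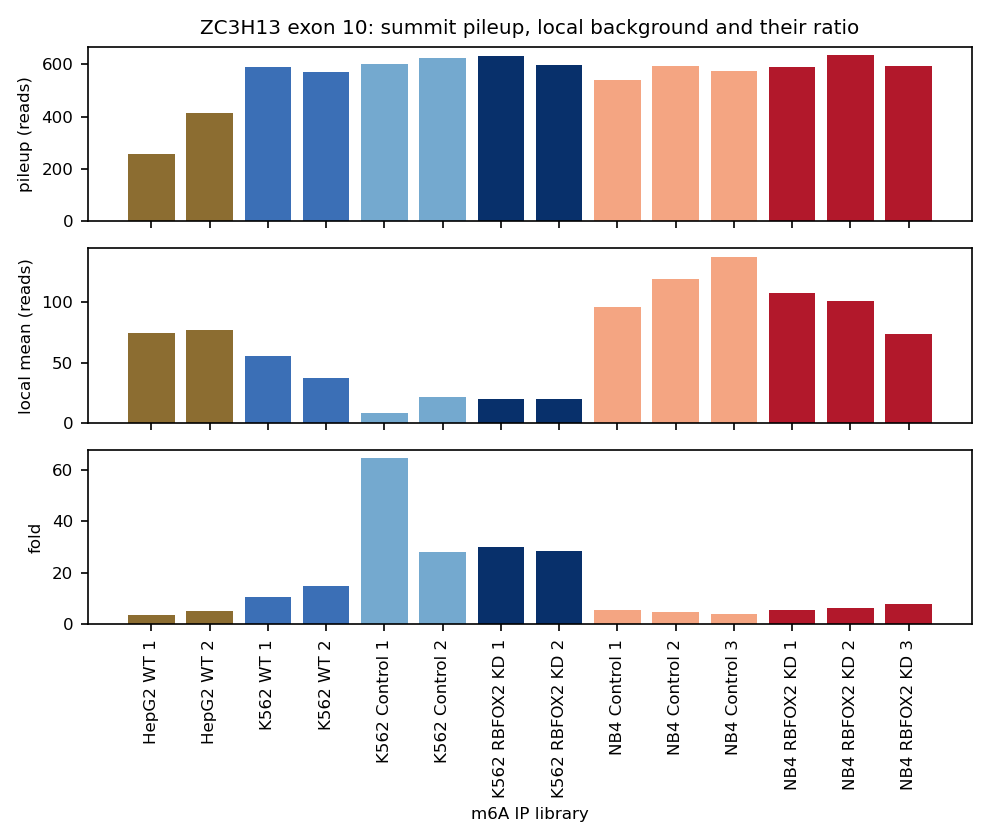
Bars show, for each of the 14 IP libraries, the pileup at the summit of ZC3H13 exon 10, the local mean of the background, both in extended reads, and the resulting fold. In HepG2 WT 1 and 2 and NB4 Control 3 pileups were not whole, so their scale differs from the other libraries. The pileup lies between 539 and 634 in all K562 and NB4 libraries, while the local mean ranges from 8.3 in K562 Control 1 to 137.9 in NB4 Control 3.

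The regions whose pattern over the 14 libraries was most like that of ZC3H13 exon 10 were sought among 7708 regions listed in all of them, by the correlation of centred log2 fold. The 3 genes outside the complex with the highest value were ENSG00000290315, a readthrough gene model whose region also lies in QRICH1 (r = 0.963), CABIN1 (r = 0.946) and DHX34 (r = 0.922). The libraries share lines and depth, so the coefficients are a description over 14 libraries. By presence, 1 of the 34 member regions listed in either Control group had a summit inside the gene bounds in all 3 NB4 libraries and in neither K562 library, against 9.92% of all sense regions. It was the border region of RBM15, which both K562 Control libraries list with a summit past the gene end, so it is not absent from K562. The reverse held for 2 of 34, RBM15 intron 1 and the 3′ UTR region of METTL14, against 16.5%.

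The KD libraries address whether m6A on these RNAs changes when RBFOX2 is depleted. No member region was called. Over both lines, 0 of 14 member regions fitted were called, against 0% of 10535 regions (871 had an unadjusted p under 0.05). The median difference of the members was -0.0044. That of all regions, -0.0082, was set near 0 by the centring of each library on its median. Before centring, the median of all regions stood 0.10 higher in KD than in Control in K562 and 0.03 higher in NB4. These estimates therefore cannot show a shift shared by all regions. Among the members, the lowest was METTL14 exon 11, at -0.40 (95% confidence interval -0.84 to 0.05, adjusted p = 0.622). The highest was WTAP exon 6, at 0.26 (-0.25 to 0.76, adjusted p = 0.801). At METTL14 exon 11 the estimate was -0.46 in K562 and -0.33 in NB4, and in both lines Control and KD libraries overlapped.

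In K562 alone, 0 of 14 were called, against 0% of all regions (308 with an unadjusted p under 0.05). ZC3H13 exon 10 had the lowest estimate, -0.65 (95% confidence interval -1.32 to 0.02, adjusted p = 1.00), with 64.4 in K562 Control 1 and the other 3 libraries between 28.2 and 30.01 before centring. In NB4 alone, 0 of 14 were called, against 0.0854% of all regions, which is 9 regions. ZC3H13 exon 14 had the highest estimate, 0.50 (0.01 to 0.98, adjusted p = 0.302), with folds of 3.62, 5.08 and 3.74 in Control and 4.94, 6.34 and 6.50 in KD. The groups overlapped there by 1 library. The difference of the KD effect between the lines was called at 0 of 14 member regions, against 0% of all. Centred estimates at ZC3H13 exon 10 were -0.65 in K562 and 0.39 in NB4 (adjusted p = 0.477), called in neither line. Once centred, Control and KD libraries did not overlap at this region in either line. The difference between the lines was largest in size there (K562 minus NB4, -1.04, SE 0.401, adjusted p = 0.61) and at exon 14 (-0.87, SE 0.355, adjusted p = 0.611).

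**Figure D5:**
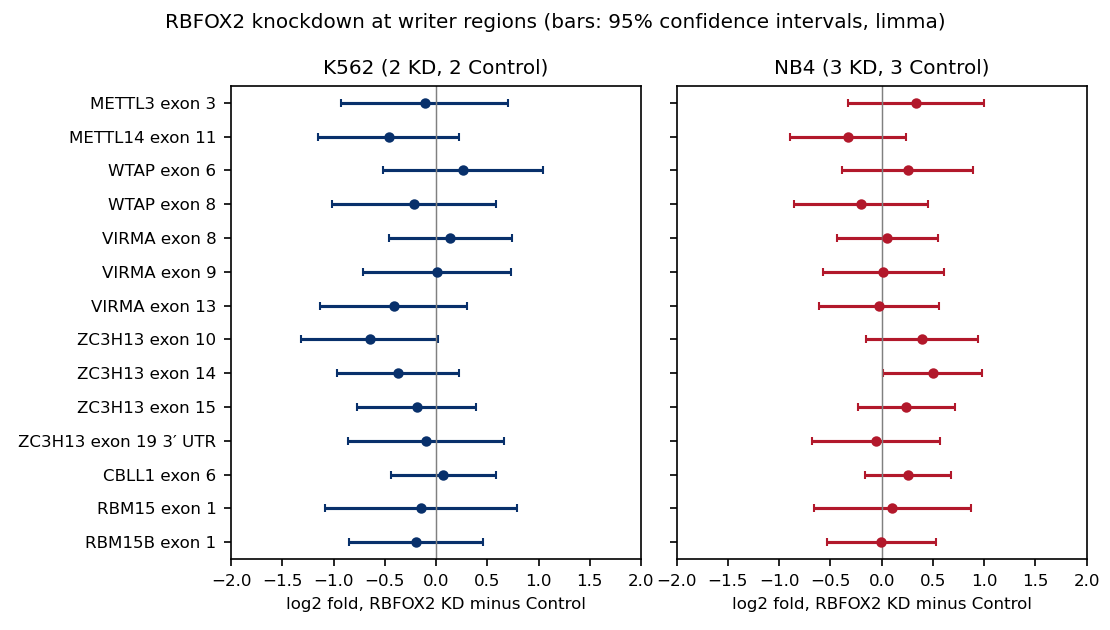
Points are limma estimates of the log2 fold of RBFOX2 KD minus Control at 14 member regions, after centring each library on its median, with 95% confidence intervals, in K562 (n = 2 and 2) and NB4 (n = 3 and 3). No region passed an adjusted p of 0.05 in either line, and ZC3H13 exon 10 lies at -0.65 in K562 and 0.39 in NB4.

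The RNAs of RBM15 and RBM15B, the subunits that bind RNA, showed no called difference either. RBM15 exon 1 differed by -0.15 in K562 (95% confidence interval -1.08 to 0.79) and 0.11 in NB4 (-0.66 to 0.87). RBM15B exon 1 differed by -0.19 in K562 (-0.85 to 0.46) and by -0.0034 in NB4 (-0.54 to 0.53). At both regions the highest summits lay in different places between libraries, so these estimates do not describe 1 site. Over the 14 regions the standard error ranged from 0.237 to 0.432 in K562 and from 0.194 to 0.353 in NB4, which sets the size of change that these libraries could show.

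By presence, 1 of 31 member regions was listed in both K562 Control libraries and in neither K562 RBFOX2 KD library, against 1.72% of all sense regions. It was the 3′ UTR region of METTL14. The reverse held for 0 of 31, against 1.3%. In NB4, 1 of 35 was listed in all 3 KD libraries and in no Control library, against 3.28%. It was ZC3H13 exon 11, at folds of 2.06, 7.84 and 6.62 in KD. The reverse held for 0 of 35, against 0.465%. Lists of NB4 RBFOX2 KD were longer than those of NB4 Control, and the effective reads were 16.8 to 21.9 M against 10.8 and 14.1 M in the 2 Control libraries where they could be recovered. Their part in the gain was not tested.

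On the opposite strand, the 8 genes held 67 peaks in 9 regions, and none were found for METTL3, METTL14 or RBM15B. The WTAP antisense region (chr6, 159726142 to 159727243) was listed in all 14 libraries, with folds of 5.09 and 7.41 in HepG2 WT, 23.6 to 32.1 in K562 and 12.7 to 17.5 in NB4. It lies within SOD2, the mitochondrial superoxide dismutase gene, whose transcripts run on that strand, and its RNA was not assigned to a transcript. Opposite RBM15 exon 1, a region on the minus strand (chr1, 110339469 to 110342212) was listed in all 6 K562 libraries at folds from 20.6 to 28.98, in both HepG2 libraries at 4.97 and 6.002, and in NB4 only in Control 3, at 5.33. No annotated gene of that strand overlaps it. A CBLL1 antisense region lay in CBLL1-AS1 and was listed in 10 libraries at 4.02 to 9.55. The WTAP region, the one antisense region that could be fitted, was called in none of the 4 KD comparisons and in neither comparison of lines.

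Other genes of the m6A pathway were counted in the same way. Among writers outside the complex, 3 of 6 had a region listed in all libraries, METTL16, PCIF1 and MAT2A. Over all genes with a sense peak the share was 34.9%. That base leaves out METTL5 and TRMT112, which had no sense peak in any library. Both erasers, FTO and ALKBH5, had a region listed in all libraries, as did 8 of 10 readers, and the exceptions were HNRNPA2B1 and HNRNPC. In the KD fits 0 of 3 writer regions, 0 of 3 eraser regions and 0 of 16 reader regions were called. Between the lines, 1 of 15 reader regions was called, in IGF2BP3, which was 0.88 higher in NB4 Control than in K562 Control on the log2 scale (SE 0.208, adjusted p = 0.00922), and no writer or eraser region was. Over all regions of that comparison 16.8% were called higher and 13.8% lower, so the share among readers was below the background.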

How the data were processed

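MeRIP-seq of caRNA gave 1 peak list per IP library. Per the labels and the methods of the study, the authors trimmed reads with Trimmomatic 0.39, aligned them to hg38 with HISAT2 2.1.0, split strands with SAMtools 1.9 and called peaks per library with MACS2 at q under 0.01, reads extended to 150 bases and up to 5 duplicates kept. The use of input as background is not given in the sources used here. The deposited lists give the fold of the summit over local background (a ratio), the −log10 p, the −log10 q and a score made from it.

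From these, peaks were merged by strand where they overlapped by at least 1 base, and placed in canonical transcripts of GENCODE release 44. Pileup and local mean were solved from fold and p. Pileups were whole (within 0.01) in 11 libraries, and in HepG2 WT 1 and 2 and NB4 Control 3 they were not, so no depth is given for these. A region's value in a library was its highest fold. Log2 folds, centred on the library median, were fitted with limma 3.58.1 in R 4.3.3 over regions listed in every library of the fit. There were 2 fits, 1 of the 10 Control and KD libraries and 1 of the 9 WT and Control libraries. Benjamini-Hochberg adjustment covered all regions of a fit and p-values are two-sided. A call is an adjusted p under 0.05. The scripts were tested on simulated data. Other steps used Python 3.11.15, numpy 2.4.6, pandas 2.3.3 and numba 0.67.0.

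All 8 genes are named. Full values are given for regions listed in all libraries, called by a fit, or listed in every library of 1 group and none of another, and all others are given by counts and ranges or named for their values. The members and lists were chosen with earlier results of these data known. The labels do not say that replicates came from separate cultures, so p-values measure only the spread between these samples. Alternatives were quantile normalization, no centring, the percentile of −log10 q, the highest summit of each gene, a mean −log10 q of at least 5, each library left out, and a replicate block. For lists they were a −log10 q of at least 5, equal list sizes, and summits within 150 bases. The fold within 150 bases of the median summit was added after seeing the data.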

Additional observations from a re-analysis of the deposited data

How the results depend on the processing

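For NB4 KD the 9 calls became 3 without centring, 71 after quantile normalization and 446 by percentile. For K562 WT against HepG2 WT the 758 calls (290 higher, 468 lower) became 6464 without centring (6443 higher, 21 lower), 1210 after quantile normalization (580 higher, 630 lower), 2046 by percentile (1789 higher, 257 lower) and 459 with the highest summit of each gene. For NB4 Control against K562 Control the 2462 calls (1352 higher, 1110 lower) became 5238 without centring (270 higher, 4968 lower) and split into 673 higher and 1448 lower by percentile. The 4 member calls became 24 without centring. By percentile, ZC3H13 exon 15 turned to 2.30 points higher in NB4 Control (adjusted p = 0.715). The calls of ZC3H13 exon 10 (0.559) and RBM15B exon 1 (0.347) were lost too. ZC3H13 exon 10 lay near the top of that scale in both Control groups, which leaves little room for a difference. The call of CBLL1 exon 6 was lost after quantile normalization (adjusted p = 0.0520). The cause was not tested. Replicate numbers did not pair the samples (correlations of deviations from -0.11 to -0.02). A replicate block left 0 calls in every KD fit, NB4 included, 793 and 2133 between lines, and 2 member calls, ZC3H13 exon 10 and RBM15B exon 1.

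With 1 library left out, counts ranged from 0 to 14 for KD in NB4, 0 to 1 for the difference between lines, 90 to 163 for K562 WT against HepG2 WT, 1452 to 2405 for NB4 against K562 Control and 1 to 5 for member calls. Member regions listed in all libraries numbered 13 to 14, and 11 to 13 under the other settings. Those present in 1 group and absent in the other ranged from 9 to 11 for K562 and HepG2 WT (7 with all libraries), 4 to 7 for the Controls (3), 2 to 6 for KD in K562 (1) and 1 to 2 for KD in NB4 (1). With summits within 150 bases in place of overlapping peaks, the Controls gave 8 and KD in K562 gave 2, and with equal list sizes KD gave 0 in both lines. The mean −log10 q minimum of 5 changed none of the counts of calls. The highest summit of each gene gives no value for single regions. Of 877 member estimates under an alternative, 751 kept their direction and their side of the threshold. Low pileups limit the weaker regions, and the ceiling on pileup limits the strongest.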
